A study of Rattus norvegicus with 2 samples.

Results

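The genes of purine breakdown and nucleoside handling were followed through the epithelium of the rat proximal jejunum. The 8 genes, chosen by symbol from the 32883 genes of the deposited tables, were the surface enzymes Enpp3 and Nt5e, the soluble enzymes Ada, Pnp and Xdh, and the nucleoside carriers Slc28a1, Slc28a2 and Slc29a1. All 8 were present in the tables of both animals. The study catalogued the cell types of this epithelium by single-cell RNA sequencing. It used 2 male Sprague Dawley rats, a wild-type outbred stock, aged 6 to 8 weeks and weighing 180 to 200 g, which were fasted overnight. Epithelium was released with EDTA and then dispersed with dispase, and each rat gave 1 library of the droplet-based 10x Genomics 3′ type, in which every captured transcript carries a unique molecular identifier (UMI). There was 1 condition and no treated group, so the comparisons made were between cell classes within the 2 animals, and sex, stock and fasting were shared by every cell measured.

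Purines reach the intestinal lumen as dietary nucleic acids and as nucleotides shed from dying cells. Pyrophosphatases and phosphatases of the brush border strip them to nucleosides, which concentrative (SLC28) carriers take up together with sodium and equilibrative (SLC29) carriers pass down their gradient. Inside the cell adenosine is deaminated to inosine by adenosine deaminase (Ada), the nucleosides are split to free bases by purine nucleoside phosphorylase (Pnp), and hypoxanthine and xanthine are oxidised to urate by xanthine dehydrogenase (Xdh). Enpp3 is a surface phosphodiesterase that cleaves nucleotides such as ATP, and Nt5e (CD73) is the surface nucleotidase that turns AMP into adenosine. Slc28a1 prefers pyrimidine nucleosides and adenosine, Slc28a2 prefers purine nucleosides, and Slc29a1 carries both kinds.

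The start-site regions of the 5 genes on whose patterns most of the results below turn are shown first, because 3 of them held recognised letter patterns. Each run covers 250 bases before to 50 bases after the annotated start, from RefSeq on the assembly GRCr8, 5′ to 3′ on the strand of the gene. The tables themselves were made on the build rn6, so these positions cannot be laid on the tables' coordinates. Capitals mark a match to any of 6 motifs searched on both strands, which were the letters AGATAA for GATA factors, CAATAAA for CDX proteins, GTTAAT for HNF1, CAAAGTC for HNF4, TGANTCA for AP-1 and TATAAA for the TATA box.
Ada (chr3:172842234-172842533, minus strand): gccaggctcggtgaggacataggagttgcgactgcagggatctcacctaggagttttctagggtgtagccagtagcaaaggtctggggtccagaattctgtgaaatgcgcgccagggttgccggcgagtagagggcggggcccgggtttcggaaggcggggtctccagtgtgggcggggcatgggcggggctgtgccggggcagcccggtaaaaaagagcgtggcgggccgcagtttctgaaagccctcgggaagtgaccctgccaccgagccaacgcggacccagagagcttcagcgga
Enpp3 (chr1:22382739-22383038, plus strand): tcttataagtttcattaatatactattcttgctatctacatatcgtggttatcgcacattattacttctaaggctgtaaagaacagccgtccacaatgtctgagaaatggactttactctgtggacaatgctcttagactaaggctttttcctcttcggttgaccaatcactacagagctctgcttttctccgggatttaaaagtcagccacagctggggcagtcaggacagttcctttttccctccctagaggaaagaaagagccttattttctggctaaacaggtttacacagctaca
Pnp (chr15:26643897-26644196, plus strand): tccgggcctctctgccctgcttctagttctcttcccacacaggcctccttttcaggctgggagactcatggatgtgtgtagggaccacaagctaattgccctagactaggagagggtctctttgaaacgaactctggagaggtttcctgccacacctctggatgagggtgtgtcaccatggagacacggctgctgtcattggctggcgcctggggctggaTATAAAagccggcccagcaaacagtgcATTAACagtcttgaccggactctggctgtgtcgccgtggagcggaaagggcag
Slc28a1 (chr1:144490373-144490672, plus strand): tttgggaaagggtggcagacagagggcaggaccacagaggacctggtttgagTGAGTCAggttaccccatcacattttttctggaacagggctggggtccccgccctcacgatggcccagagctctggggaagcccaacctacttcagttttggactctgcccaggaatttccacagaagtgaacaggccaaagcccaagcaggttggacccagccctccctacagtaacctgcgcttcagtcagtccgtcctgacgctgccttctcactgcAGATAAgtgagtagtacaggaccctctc
Slc28a2 (chr3:129819538-129819837, plus strand): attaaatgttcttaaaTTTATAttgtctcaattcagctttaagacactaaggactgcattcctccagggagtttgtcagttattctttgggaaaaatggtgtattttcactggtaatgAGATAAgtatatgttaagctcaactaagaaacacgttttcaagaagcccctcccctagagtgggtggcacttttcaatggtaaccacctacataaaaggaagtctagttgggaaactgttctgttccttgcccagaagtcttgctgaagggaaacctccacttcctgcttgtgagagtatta
The Pnp region held TATAAA 30 bases before the start and the reverse form of the HNF1 letters, ATTAAC, 3 bases before it. The Slc28a1 region held an AP-1 match, TGAGTCA, 198 bases before the start and AGATAA from position 23 after it. The Slc28a2 region held AGATAA 132 bases before the start and the reverse TATA letters, TTTATA, 234 bases before it. Ada and Enpp3, like Nt5e, Xdh and Slc29a1, held none of the 6 motifs. Of 33469 RefSeq promoters of the same length, 11.584% held the GATA letters, 4.565% those of CDX, 7.452% HNF1, 4.613% HNF4, 7.329% AP-1 and 14.222% TATA, so the counts among the 8 genes (2, 0, 1, 0, 1 and 2) describe letters in these windows and nothing more. Base composition differed more plainly, with a GC content of 64.3% in the Ada region and 39.3% in that of Slc28a2.

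The tables held 12033 barcodes and 99986348 UMIs in rat 1 and 8252 barcodes and 66469907 UMIs in rat 2. Cells with more than 5000 UMIs, more than 200 and fewer than 5800 genes and at most 40% mitochondrial UMIs were retained, which left 5988 cells in rat 1 and 2230 in rat 2, with median depths of 12200 and 13962 UMIs. The libraries shared 28 barcodes, 4 of them among retained cells. Cells were clustered without using any of the 8 genes and named from marker lists, and enterocyte-like cells were ordered by a maturity score (villus genes minus genes of immature cells) and divided within each rat into 3 equal groups called early, mid and mature, of 1166 cells each in rat 1 and 363 each in rat 2. The other classes held 1171 and 35 crypt cells (stem-like and cycling), 179 and 18 secretory progenitor-like, 165 and 135 goblet/Paneth-like, 28 and 11 enteroendocrine-like (EEC-like), 16 and 121 tuft-like and 8 and 72 CFTR high expresser-like (CHE-like) cells in rat 1 and rat 2. The 35 crypt cells of rat 2 stood apart from their label, since 8 of them (22.9%) carried a UMI of the leukocyte gene Ptprc and the summed CHE marker level was 5342 CPM (UMIs of a gene or list, scaled to one common total in every class), against 89.9 CPM in rat 1. Their summed list of 13 leukocyte genes came to 1624 CPM, with 2 of the genes at 0, against 310 CPM and 3 at 0 in rat 1. The tuft list summed to 349 CPM against 2.57 CPM, and the EEC list to 384 CPM against 47.0 CPM. The part of these other cell types in the crypt levels of rat 2 was not tested beyond leaving out the cells with Ptprc. All levels below are CPM of the UMIs summed over a class in 1 rat, which differ with transcript capture as well as abundance, so levels are compared between classes for 1 gene and not between genes.

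Shares were taken of the UMIs in the named classes plus those in marker-poor cells, which belong to no class (523 and 38 cells). Of this total, enterocyte-like cells carried most of the UMIs of 6 of the 8 genes in both rats. They held 94.0% of the Ada UMIs in rat 1 and 98.7% in rat 2, and 94.3% and 95.5% of those of Enpp3. The shares were 90.9% and 95.8% for Xdh, 97.3% and 97.9% for Slc28a1, 73.3% and 96.9% for Slc28a2, and 61.8% and 88.6% for Pnp. Nt5e was split, with 48.9% in rat 1 and 93.0% in rat 2. These shares rise with the number of enterocytes recovered, so levels per class are given next. Slc29a1 was scarcely detected, with 4 UMIs over all named classes in rat 1 and 3 in rat 2.

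**Figure D1:**
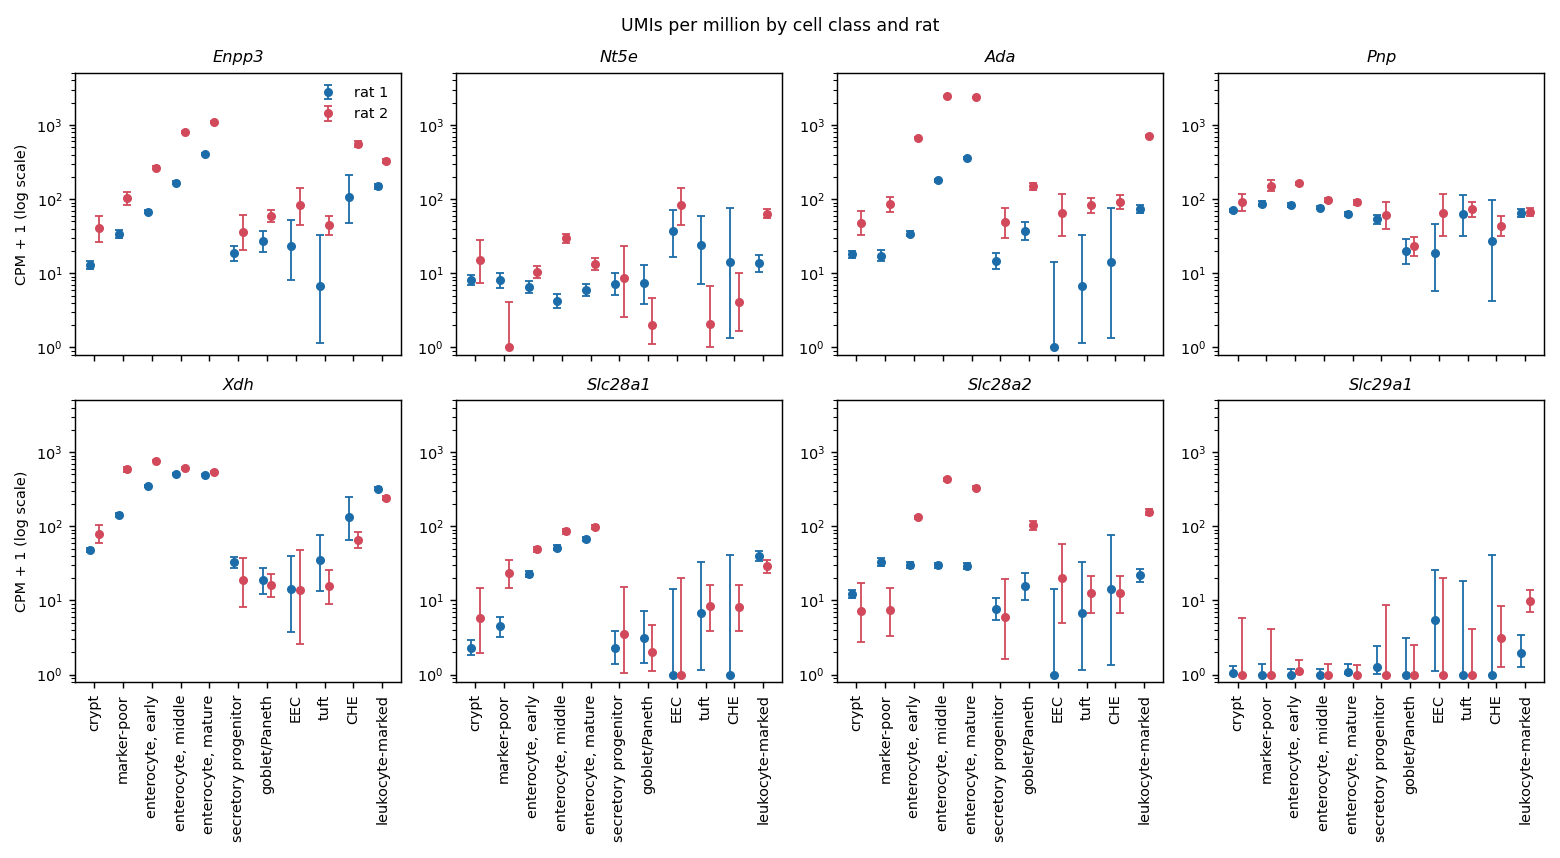
Levels of the 8 genes in 11 cell classes, as CPM plus 1 on a log axis, with 1 point per rat and bars for the 95% exact Poisson interval (counting error only). Ada, Enpp3, Xdh and Slc28a1 were highest in enterocyte-like classes, Nt5e was highest in EEC-like cells (35.7 and 83.4 CPM), Pnp varied least among the detected genes, and Slc29a1 lay near the bottom of the scale throughout.

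Among the surface enzymes, Enpp3 was 12.1 CPM in crypt, 67.1 in early, 167 in mid and 405 in mature enterocyte-like cells of rat 1. In rat 2 the same classes stood at 39.3, 265, 805 and 1097 CPM. The order was the same in both animals and the counting intervals of neighbouring steps did not overlap. Among the other named classes the highest level was in CHE-like cells, at 107 CPM in rat 1 (8 UMIs, 95% interval 46.0 to 210) and 555 CPM in rat 2 (534 UMIs, 509 to 604). After each cell was thinned to 5000 UMIs, an Enpp3 UMI was found in 73.1% of mature cells of rat 1 and 97.2% of rat 2, against 7.14% and 11.9% of erythroid-marked cells, which should lack it (median depths before thinning 11711 and 23500 UMIs in mature cells, 5460.5 and 7361.5 in erythroid-marked cells). Before thinning the shares in mature cells were 89.6% and 100%. The 28 erythroid-marked cells of rat 1 are not a clean reference, here or for the genes below. They carried 85198 CPM of the Paneth gene Defa24, against 4261 CPM in goblet/Paneth-like cells of that rat and 3.20 CPM in erythroid-marked cells of rat 2. The part of epithelial cells in their shares was not tested.

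Nt5e had another order. Its level was 35.7 CPM in the EEC-like cells of rat 1 (8 UMIs, 15.4 to 70.3) and 83.4 CPM in those of rat 2 (13 UMIs, 44.4 to 143), the highest of the named classes in each animal. Crypt cells stood at 7.09 and 14.1 CPM, early enterocyte-like cells at 5.57 and 9.49, mid at 3.24 and 28.5, and mature at 4.99 and 12.4. In rat 1 every neighbouring pair in the order of classes overlapped in counting error, while in rat 2 only the step from EEC-like to mid enterocyte-like cells did not. Tuft-like cells gave 22.7 CPM in rat 1 (4 UMIs) and 1.04 in rat 2, so the animals did not share a second place. The 16 tuft-like cells of rat 1 also carried crypt genes, with the stem list at 835 CPM against 73.8 CPM in rat 2 and the cycling list at 523 CPM against 115 CPM, and the part of these in the Nt5e level was not tested. Cells marked by leukocyte genes, which belong to no epithelial class, carried 12.7 CPM of Nt5e in rat 1 and 62.8 CPM in rat 2.

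Ada, the deaminase, was 17.1 CPM in crypt, 33.2 in early, 178 in mid and 354 in mature enterocyte-like cells of rat 1. In rat 2 it was 47.2, 676, 2450 and 2363 CPM, so that mid and mature cells there were almost level although their narrow counting intervals did not overlap. Every enterocyte-like class of rat 2 was above that of rat 1, and with 1 library per animal this difference has no test. The libraries also differed in the median mitochondrial share of mature cells, at 13.2% in rat 1 and 24.7% in rat 2, whose part in the difference was not tested. An Ada UMI was found in 39.6% and 91.5% of mature cells after thinning to 5000 UMIs (56.9% and 100% before), against 10.9% and 47.4% of goblet/Paneth-like cells and 3.57% and 24.2% of erythroid-marked cells. Goblet/Paneth-like cells came next among the other epithelial classes, at 36.6 and 148 CPM.

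Pnp, which splits inosine and guanosine, varied little between crypt and villus. It was 69.6 CPM in crypt, 82.9 in early, 76.0 in mid and 62.5 in mature enterocyte-like cells of rat 1, and 89.6, 163, 96.6 and 89.3 CPM in rat 2. The lowest levels were in goblet/Paneth-like cells (19.0 and 22.1 CPM) and, in rat 1, EEC-like cells (17.8 CPM, against 64.1 CPM in rat 2), and tuft-like cells (62.5 and 71.8 CPM) stood near the mature enterocytes. Xdh, the last enzyme of the chain, was 47.1 CPM in crypt and 347, 505 and 498 CPM in early, mid and mature cells of rat 1. In rat 2 it was 78.6 CPM in crypt and already 770 CPM in early cells, then 609 and 546. The early cells were therefore the lowest enterocyte class for Xdh in 1 animal and the highest in the other. A small group of cells with ribosomal genes but few markers of any class (523 and 38 cells) had 142 CPM of Xdh in rat 1 and 586 CPM in rat 2, and was kept out of every class. Goblet/Paneth-like cells had 17.6 and 14.9 CPM.

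Of the carriers, Slc28a1 was measured at no more than 7.28 CPM in any named class other than the enterocytes. Its counts of 0 allow up to 39.9 CPM in CHE-like cells of rat 1 and up to 13.4 and 19.2 CPM in EEC-like cells of rat 1 and rat 2. Its level was 1.28 CPM in crypt, 21.6 in early, 50.6 in mid and 65.6 in mature cells of rat 1, and 4.72, 47.7, 84.7 and 96.9 CPM in rat 2, with mid and mature overlapping in the second animal only. It was found in 28.3% and 35.3% of mature cells after thinning (50.8% and 81.5% before), against 0% and 0.41% of erythroid-marked cells. Slc28a2 was 11.2 CPM in crypt and 29.2, 28.6 and 28.5 CPM in early, mid and mature cells of rat 1, but 6.29, 131, 428 and 331 CPM in rat 2. The 3 enterocyte classes of rat 1 could not be ordered, and its marker-poor cells (32.0 CPM) were at the same level, whereas those of rat 2 had 6.32 CPM. Goblet/Paneth-like cells carried 14.8 CPM of Slc28a2 in rat 1 and 102 CPM in rat 2, above the other secretory classes of rat 2. A Slc28a2 UMI was found in 3.95% and 40.2% of mature cells after thinning (5.15% and 49.6% before), at the same depth at which 2.42% and 17.8% of goblet/Paneth-like cells and 0% and 4.51% of erythroid-marked cells had one.

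**Figure D2:**
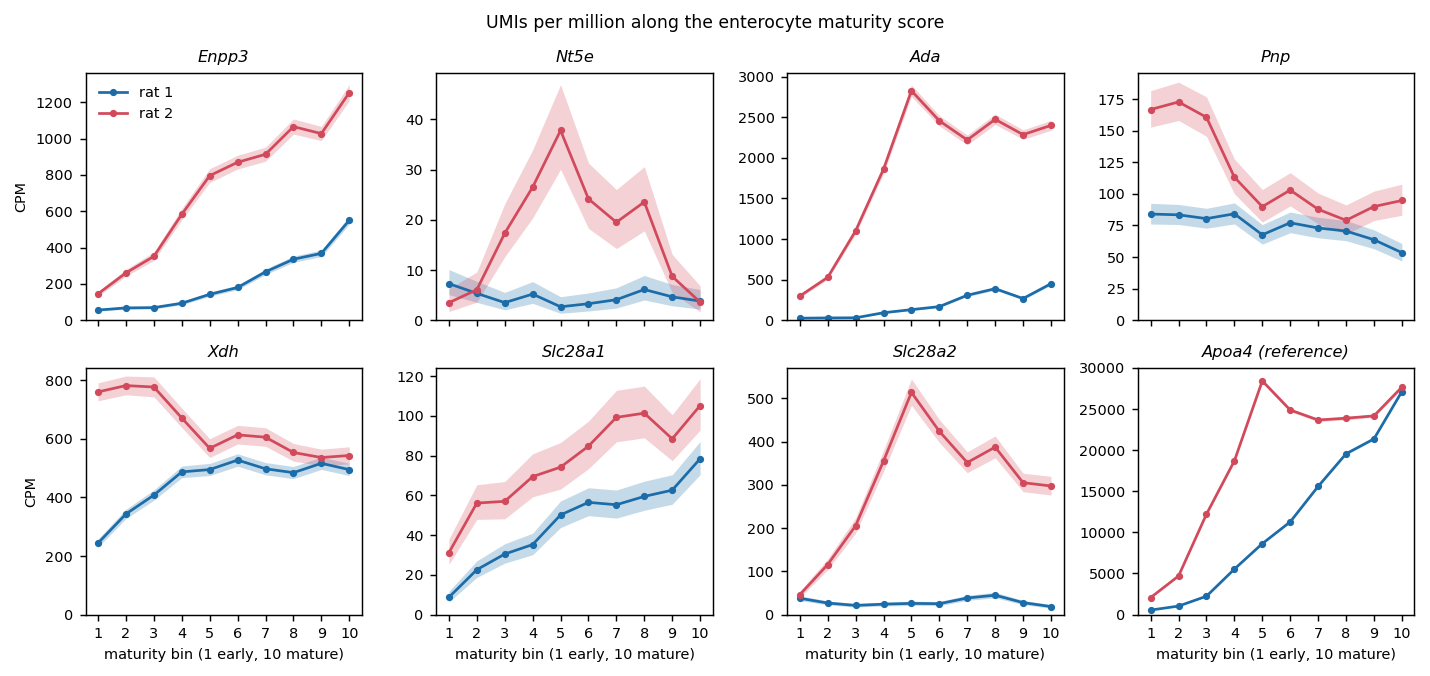
CPM of each gene in 10 equal bins of enterocyte-like cells by maturity score, 1 line per rat with a band for the 95% exact Poisson interval, and Apoa4 as a reference. Ada went from 25.7 to 450 CPM from first to last bin in rat 1 and from 298 to 2400 CPM in rat 2 with its peak in bin 5, while Pnp was lower in the last bin than in the first in both rats.

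Finer bins of the maturity score showed which of these courses were steady. From the first to the last of 10 bins Enpp3 went from 56.3 to 551 CPM in rat 1 (9.78 times) and from 146 to 1253 CPM in rat 2 (8.60 times). Slc28a1 went from 8.71 to 78.5 CPM (9.01 times) and from 31.2 to 105 CPM (3.37 times). Both carrier and enzyme were thus higher at the mature end in each animal. Ada ended 17.5 times above its first bin in rat 1 and 8.06 times above it in rat 2, where its highest value, 2827 CPM, fell in bin 5. Xdh ended 2.03 times above its first bin in rat 1 and at 0.714 times in rat 2, and Pnp at 0.636 and 0.568 times. Slc28a2 peaked in bin 8 of rat 1 at 44.7 CPM and in bin 5 of rat 2 at 514 CPM, and Nt5e reached 37.8 CPM in bin 5 of rat 2, the same bin as Ada and Slc28a2. The score is a range without natural breaks, and 184 and 448 cells of rat 1 and 72 and 135 cells of rat 2 lay within 0.1 SD of its lower and upper boundary.

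The bins in which Ada, Slc28a2 and Nt5e peaked pointed to the clusters themselves. Enterocyte-like cells formed 6 clusters, here put in order of the summed level of villus tip genes (Apoa4, Klf4, Egfr, Creb3l3, Krt20 and Cdkn1a), which went from 2982 to 73159 CPM in rat 1 and from 3494 to 69727 CPM in rat 2. The last of them was led by Apoa4 and Ada, with S100a6, Cldn4, Clca4 and Apoa1 next, and held 166 cells of rat 1 (4.75% of enterocyte-like cells) and 209 cells of rat 2 (19.2%). Apoa4 alone gave 65914 CPM of the tip sum of this cluster in rat 1 and 65068 CPM in rat 2, so the sum is largely Apoa4 there. Krt20, another tip gene, went from 4176 CPM in the fifth cluster to 4319 CPM in the last in rat 1, but from 2875 to 1866 CPM in rat 2. None of the 8 genes was used to form the clusters, but genes of clustered cells are not independent of one another, so these values are a description and were not tested.

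**Figure D3:**
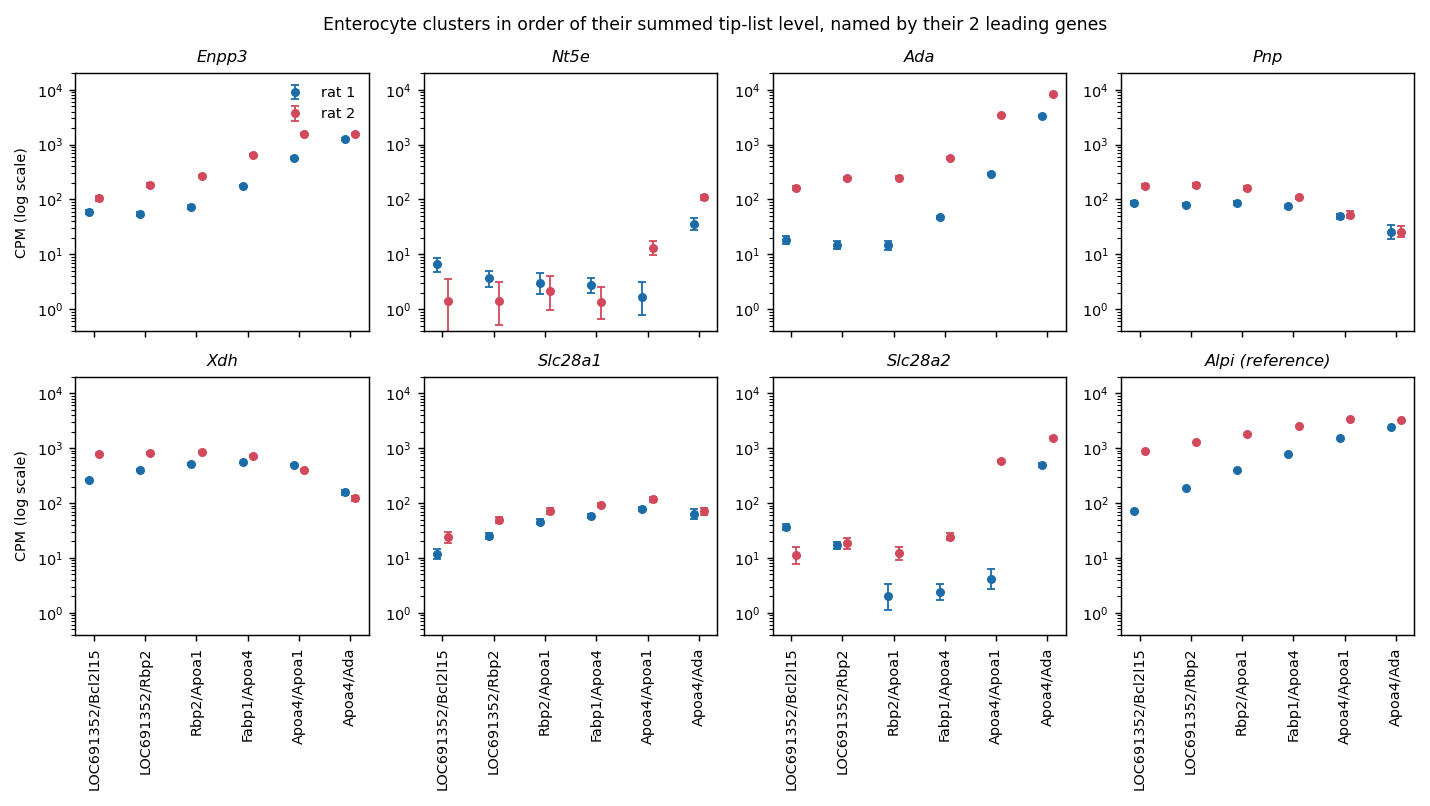
CPM on a log axis in the 6 enterocyte-like clusters, named by their 2 leading genes and ordered by summed villus tip level, with 1 point per rat, 95% exact Poisson intervals for the members and Alpi as a reference. In the Apoa4/Ada cluster Ada, Nt5e and Slc28a2 were at their highest in both rats, Enpp3 was at its highest in rat 1 and level with the cluster before it in rat 2, and Xdh and Pnp were at their lowest.

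Ada was 18.5, 14.8, 14.6, 47.4, 295 and 3310 CPM over the 6 clusters of rat 1. In rat 2 it was 163, 245, 248, 569, 3411 and 8288 CPM. The first 3 clusters were low in either rat, and the level was concentrated in the last 2. The Apoa4/Ada cluster alone held 66.5% of the Ada UMIs of enterocyte-like cells in rat 1 and 55.1% in rat 2, from 3.65% and 11.7% of their UMIs. Every cell of the cluster carried an Ada UMI after thinning, and its Ada level was 52.4 and 9.25 times that of the other enterocyte-like cells. The cluster was singled out as the one with Ada among its leading genes, so the direction of these Ada values was given by that choice.

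Slc28a2, the purine nucleoside carrier, was concentrated in the same cluster. Its levels over the 6 clusters were 36.7, 16.9, 2.02, 2.44, 4.17 and 494 CPM in rat 1 and 11.2, 18.5, 12.2, 24.5, 579 and 1558 CPM in rat 2. In rat 1 it therefore had a high level in the last cluster, lower levels in the first 2 and its lowest levels in the 3 between, which the flat course over the 3 maturity groups did not show. Without the Apoa4/Ada cluster, the mature cells of rat 1 stood at 2.11 CPM of Slc28a2 and those of rat 2 at 198 CPM. Nt5e was 6.59, 3.66, 2.97, 2.71, 1.67 and 36.3 CPM in rat 1 and 1.40, 1.42, 2.15, 1.38, 13.2 and 110 CPM in rat 2. The cluster held 28.6% and 80.2% of enterocyte Nt5e UMIs and 62.6% and 63.9% of those of Slc28a2.

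Enpp3 had a more gradual course, at 59.7, 54.0, 72.4, 175, 576 and 1249 CPM in rat 1 and 105, 184, 268, 658, 1557 and 1578 CPM in rat 2. Slc28a1 went from 11.9 to 77.8 CPM in the fifth cluster and 63.2 CPM in the last one of rat 1, and from 23.8 to 116 and 70.2 CPM in rat 2. The pyrimidine-preferring carrier was thus at its highest one step before the purine-preferring one, although its last 2 clusters overlapped in counting error in rat 1 and not in rat 2. Xdh was 263, 402, 511, 548, 486 and 156 CPM in rat 1 and 789, 824, 865, 719, 395 and 123 CPM in rat 2. Pnp was 85.3, 80.5, 85.6, 74.7, 49.3 and 25.7 CPM, and 174, 184, 160, 109, 53.2 and 25.9 CPM. In the cells with the most Ada, the next 2 enzymes of the chain were at 0.338 and 0.197 times (Pnp) and 0.341 and 0.171 times (Xdh) the level of the other enterocyte-like cells.

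The Apoa4/Ada cluster was not the same set of cells as the mature group. Of its cells 105 of 166 in rat 1 (63.3%) but only 55 of 209 in rat 2 (26.3%) fell in the mature group, with 108 of the latter in the mid group. Its median depth was 9079.5 UMIs in rat 1 and 12699 in rat 2, with medians of 1773.5 and 1732 genes and of 8.89% and 29.4% mitochondrial UMIs. A Ptprc UMI was present in 5 and 9 of its cells. Mature enterocyte genes were uneven within it, with 123 and 38.3 CPM of Si (sucrase-isomaltase), 30648 and 8349 CPM of Fabp1 and 2383 and 3269 CPM of Alpi. The part of depth, mitochondrial share and RNA quality in the levels of this cluster was not tested.

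Levels of the classes were compared over the 2 rats by summing the raw UMIs of each rat and class, 18 sums in all, and fitting edgeR's quasi-likelihood test to the 10063 genes that passed its filter on low counts, with Benjamini-Hochberg adjustment over all of them and a threshold of 0.05. Of the 8 genes 7 passed the filter, and Slc29a1 did not. Both sums of a class come from separate animals, and the spread is that between the 2 rats within a class, estimated over all classes in 1 model. All sums of a rat come from the same animal, but this model treats them as independent. The fit with the rat as a replicate block is given where it changed a call. The fit scales each sum by TMM, which rests on the bulk of genes and not on the UMI total as CPM does, so that fold changes and the differences within 1 rat given with them (log2 CPM after TMM scaling) do not equal ratios of the CPM above. The TMM factors were 1.22 and 1.55 for crypt and 0.637 and 0.612 for mature enterocyte-like cells in rat 1 and rat 2. With UMI totals alone in place of TMM, a choice made after seeing the data, the median log2 fold change of all genes moved from 0.11 to 1.02 in crypt against enterocyte-like cells, from -0.07 to 0.51 in secretory against enterocyte-like cells and from -0.02 to -0.47 in mature against early cells. In each comparison fewer cells of a kind within a class and less RNA per cell cannot be told apart.

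After TMM scaling crypt cells had lower levels than enterocyte-like cells of 6 of the 7 tested genes, beside 21.3% of all genes that were lower and 49.2% that were called in either direction (28% higher). With UMI totals alone 5 of the 7 were lower, beside 10% of all genes lower and 45.7% higher. Slc28a1 was lower by 5.83 on the log2 scale (log2 fold change -5.83 ± 0.71 SE, adjusted p = 4.77e-05 by edgeR) and Xdh gave -4.13 ± 0.54 (adjusted p = 5.69e-05). Enpp3 stood at -5.08 ± 1.19 (adjusted p = 0.00313), Slc28a2 at -4.89 ± 1.41 (adjusted p = 0.0112) and Ada at -5.87 ± 1.83 (adjusted p = 0.0167). The direction of these 5 was shared by both animals, but the size varied. For Ada the difference within 1 rat was -3.61 in the first animal and -6.28 in the second (-2.88 and -5.05 with UMI totals alone), and Slc28a2 had -2.05 and -6.39 (-1.34 and -5.27). Pnp passed with TMM at -1.20 ± 0.42 (adjusted p = 0.0295), but this call depended on the scaling. It was lost with UMI totals alone (-0.23, adjusted p = 0.634; -0.08 and -0.32 in the 2 rats, against -0.80 and -1.57 after TMM), with DESeq2's size factors in edgeR (-0.98, adjusted p = 0.0744) and without an upper limit on genes per cell (-0.92, adjusted p = 0.0937). DESeq2 itself called 6 of the 7 genes. Nt5e did not pass (-1.04 ± 0.88, adjusted p = 0.339). With every cell that carried a Ptprc UMI left out, a choice made after seeing the data, the 6 were still lower after TMM, with Ada at -5.80 and Pnp at -1.09 (adjusted p = 0.0423). The median of the 7 genes was -4.89 and that of all genes 0.11.

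The crypt levels were set beside those of 8 abundant enterocyte genes (Apoa1, Apoa4, Apob, Apoc3, Fabp1, Fabp2, Alpi and Si), whose transcripts reach other droplets as free RNA. The part of expression by the other classes themselves in the levels of these 8 genes was not tested. In crypt these stood at 0.530% to 2.21% of their mature level in rat 1 and 0.564% to 8.23% in rat 2. Pnp stood at 111% and 100% of the mature level, Nt5e at 142% and 114% and Xdh at 9.4% and 14.4%, all above that range in both animals. Slc28a2 (39.4%), Ada (4.84%) and Enpp3 (2.99%) were above it in rat 1 and within it in rat 2 (1.9%, 2.0% and 3.58%), and Slc28a1 was within it in both (1.96% and 4.87%).

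Secretory cells (the mean of goblet/Paneth-like, EEC-like, tuft-like and CHE-like sums) also had lower levels than enterocyte-like cells of 6 of the 7 genes, beside 23.5% of all genes lower and 37.2% called in either direction (13.7% higher). With UMI totals alone the 6 were still called, beside 13.5% of all genes lower and 27.6% higher. The largest differences were those of Slc28a1 (-6.19 ± 0.54, adjusted p = 2.49e-06 by edgeR) and Xdh (-5.06 ± 0.32, adjusted p = 2.53e-07). The secretory levels of Slc28a1 were near the floor, at 0 CPM in EEC-like cells of both rats and in CHE-like cells of rat 1. Its differences within 1 rat, -5.92 and -5.19 after TMM, were both smaller than the estimate. Ada stood at -4.64 ± 0.94 (adjusted p = 0.00142), Slc28a2 at -3.89 ± 0.83 (adjusted p = 0.00201), Enpp3 at -3.15 ± 0.60 (adjusted p = 0.000868) and Pnp at -1.91 ± 0.28 (adjusted p = 9.93e-05). Nt5e did not pass, at -0.87 ± 0.65 (adjusted p = 0.339), and its 2 animals went opposite ways, with differences of 1.15 in rat 1 and -2.11 in rat 2 after TMM. The median was -3.89 for the 7 genes and -0.07 for all genes.

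**Figure D4:**
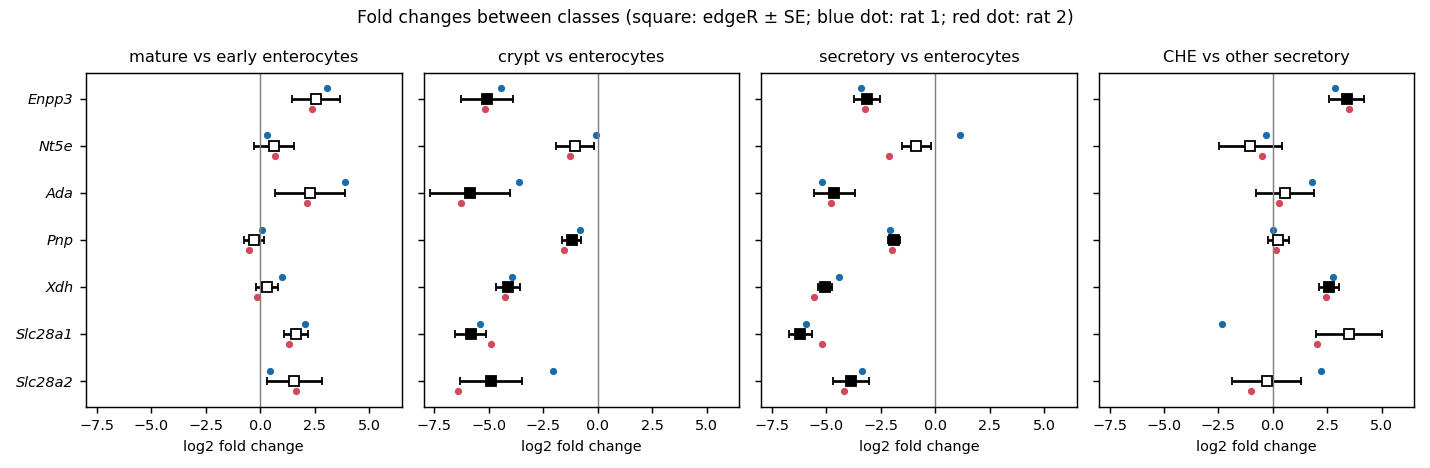
Log2 fold changes of the 7 tested genes in 4 class comparisons. Squares with bars are edgeR estimates ± SE, filled where the adjusted p was below 0.05, and the blue and red dots are the differences of TMM-scaled log2 CPM in rat 1 and rat 2. Against enterocytes 6 genes are filled for crypt (Pnp not with UMI totals alone) and for secretory cells. Enpp3 and Xdh are filled for CHE-like against other secretory cells, and none is filled for mature against early enterocytes.

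Mature against early enterocyte-like cells gave no call among the 7 genes by edgeR, in a comparison in which 0.00994% of all genes were called. At an unadjusted p under 0.05 there were 2 (Enpp3 and Slc28a1), beside 14.5% of all genes, and DESeq2 called 0. The estimates were 2.57 ± 1.09 for Enpp3 (adjusted p = 0.305), 2.31 ± 1.60 for Ada (adjusted p = 0.527) and 1.64 ± 0.55 for Slc28a1 (adjusted p = 0.203). Both rats had the same direction for these 3 genes, with differences after TMM of 3.07 and 2.38 for Enpp3, 3.89 and 2.14 for Ada and 2.08 and 1.35 for Slc28a1, which were 2.59 and 2.05, 3.40 and 1.80, and 1.59 and 1.01 with UMI totals alone. With the rat as a replicate block, where 15.2% of all genes were called, the 3 were higher in mature cells, Enpp3 by 2.77 ± 0.42 (adjusted p = 0.00141), Slc28a1 by 1.76 ± 0.32 (adjusted p = 0.00318) and Ada by 2.83 ± 0.66 (adjusted p = 0.0107). Slc28a2 did not pass with the block (1.22, adjusted p = 0.292), nor did it without it (1.57 ± 1.26, adjusted p = 0.592), and Nt5e (0.63, adjusted p = 0.802), Xdh (0.31, adjusted p = 0.824) and Pnp (-0.28, adjusted p = 0.832) were not called either. When the cells were ordered by villus tip genes alone, a choice made after seeing the data and fitted with the replicate block, 12.8% of all genes were called, with Ada at 3.85 ± 0.84 (adjusted p = 0.00882), Enpp3 at 2.79 (adjusted p = 0.00157), Slc28a1 at 1.48 (adjusted p = 0.00806) and Slc28a2 at 2.44 ± 0.85 (adjusted p = 0.0700).

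Within the secretory lineage the CHE-like cells, a rare type rich in the chloride channel CFTR, differed from the mean of the other 3 classes in 2 of the 7 genes, both higher, beside 4.58% of all genes higher and 5.71% called (11.2% with the replicate block). Enpp3 gave an estimate of 3.39 ± 0.80 (adjusted p = 0.0241 by edgeR), with differences of 2.86 in rat 1 and 3.50 in rat 2, and Xdh one of 2.59 ± 0.47 (adjusted p = 0.00546), with 2.77 and 2.42. Only 8 cells stood for this class in rat 1, with 10 UMIs of Xdh (133 CPM) against 62 UMIs (64.4 CPM) in the 72 cells of rat 2. Against the mature level, Enpp3 stood at 26.3% and 50.6% and Xdh at 26.7% and 11.8%, where the 8 abundant enterocyte genes stood at 1.10% to 7.08% and 0.957% to 5.86%. An Enpp3 UMI was present in 91.7% of the CHE-like cells of rat 2 after thinning (95% exact binomial interval 82.7% to 96.9%). Without an upper limit on genes per cell neither gene was called (Enpp3 2.64, adjusted p = 0.109, and Xdh 1.39, adjusted p = 0.123).

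EEC-like cells, the hormone-producing class, gave no call among the 7 genes by edgeR, beside 4.71% of all genes, with 2 at an unadjusted p under 0.05 (Nt5e and Xdh), beside 17.3% of all genes, and 1 called by DESeq2 (Nt5e). Nt5e stood at 3.49 ± 1.02 (adjusted p = 0.0694), with differences of 1.58 and 4.80 in the 2 rats. It was higher with the replicate block, at 3.76 ± 1.02 (adjusted p = 0.0359, 6.95% of all genes called), and by DESeq2 (3.47, adjusted p = 0.0197). In the comparison as a whole, 1 of the 7 genes was also called without an upper limit on genes per cell, with a mitochondrial limit of 20% and without integration. The EEC-like level rested on 8 and 13 UMIs and was 715% and 673% of that of mature enterocytes, beside 0.946% to 10.4% and 0.863% to 20.7% for the reference genes. A list of 7 fibroblast and endothelial genes also stood high in the EEC-like cells, at 1021 CPM in rat 1 (4 of the 7 at 0, with Vim, Col1a1 and Col3a1 present) and 398 CPM in rat 2 (6 at 0, with Vim alone), against 0 to 10.4 CPM in the other secretory classes. The leukocyte list summed to 508 CPM in the first rat and 77.0 CPM in the second, against 117 to 559 CPM in the other secretory classes. Without cells carrying a Ptprc UMI, Nt5e was at 3.91 (adjusted p = 0.0746), and the part of fibroblast and endothelial transcripts in its level was not tested.

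Goblet/Paneth-like cells gave no call by edgeR either, beside 4.29% of all genes, with 1 of 7 at an unadjusted p under 0.05, beside 16.9% of all genes, and 0 by DESeq2. That gene was Slc28a2, at 3.01 ± 1.14 (adjusted p = 0.177), which was higher with the replicate block at 3.16 ± 0.83 (adjusted p = 0.0237, 10.1% of all genes called), with 2.64 and 3.30 in the 2 rats. Its level was uneven inside the class. The cluster led by Zg16 and Tff3 had 33.2 and 137 CPM of Slc28a2, and the cluster led by Tff3 and Agr2 had 7.8 and 11.1 CPM. Against the mature enterocytes the class stood at 51.8% and 30.9%, beside 1.15% to 2.57% and 0.925% to 12.0% for the reference genes. Tuft-like cells, the chemosensory class, gave 0 calls by edgeR beside 4.5% of all genes, 0 at an unadjusted p under 0.05 (17.9% of all genes) and 0 by DESeq2. Enpp3 was lower there with the replicate block only, at -2.24 ± 0.47 (adjusted p = 0.00663, 9.2% of all genes called) against -2.06 ± 1.03 (adjusted p = 0.322) without it.

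**Figure D5:**
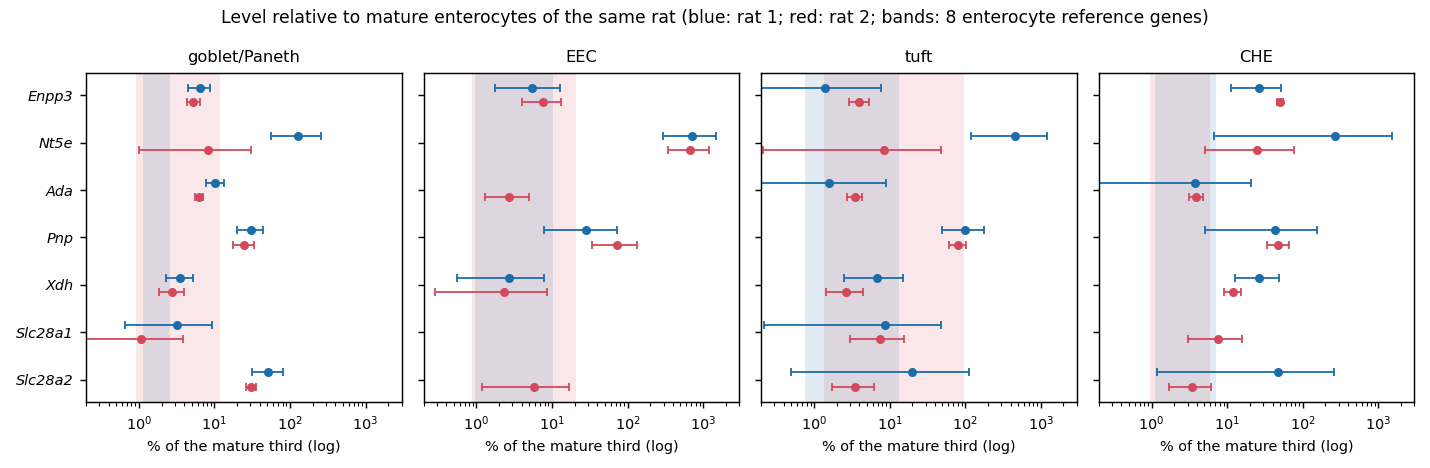
Level of each member but Slc29a1 in goblet/Paneth-like, EEC-like, tuft-like and CHE-like cells, as a percent of that in mature enterocyte-like cells of the same rat. The axis is a log axis, with 95% exact intervals (counting error only). Bands show the range of 8 abundant enterocyte genes, whose transcripts reach other droplets as free RNA. The band of tuft-like cells of rat 2 runs from 1.35% to 95.9%, with a median of 2.06%. Expression of these genes by the classes themselves was not tested. Enpp3 in CHE-like, Nt5e in EEC-like and Slc28a2 in goblet/Paneth-like cells lie above the band in both rats, and members with 0 UMIs are not drawn.

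Slc29a1 was at 4 UMIs in the named classes of rat 1 and 3 in rat 2. In mature enterocyte-like cells 1 UMI gave 0.0674 CPM in rat 1, and the 0 UMIs of rat 2 allow up to 0.357 CPM (3 UMIs, the limit used for every count of 0). Over all retained cells it had 9 and 68 UMIs. In rat 2 most of them came from cells without epithelial transcripts (37 UMIs) and from leukocyte-marked cells (8.92 CPM, against 0.959 CPM in rat 1). No class comparison could be made for this carrier at this depth.

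The other genes of the pathway, taken from 6 lists, were read in the same fits, where 28% of all genes were higher and 21.3% lower in crypt. In crypt against enterocyte-like cells, 10 of 12 tested genes of purine synthesis de novo were higher and 1 lower (median log2 fold change 3.88), and 11 higher and 0 lower with UMI totals alone. Paics, which carries 2 steps of that route, was 50.4 and 75.4 CPM in crypt and 0.3 and 0.2 CPM in mature cells (6.93 ± 0.48, adjusted p = 3.21e-06 by edgeR), Ppat, its first committed enzyme, stood at 6.26 and Impdh2, which leads to guanine nucleotides, at 5.86. Impdh1, its paralogue, was the gene that was lower after TMM, at -1.13, and was not called with UMI totals alone (-0.20). Of 7 salvage genes 2 were higher, Hprt1 (1.89) among them, and Aprt was lower (-1.72), but with UMI totals alone 4 were higher and Aprt was not called (-0.70). Of 9 tested genes of intracellular breakdown 1 was higher, the nucleotidase Nt5c3b (4.05), and 2 were lower. With UMI totals alone 5 were higher and 1 lower. The lower genes after TMM were the AMP deaminase Ampd3 (-2.98, not called with UMI totals alone at -1.89) and guanine deaminase Gda, at 98.0 and 83.3 CPM in crypt and 430 and 528 CPM in mature cells (-3.49). The counts for salvage and breakdown thus moved with the scaling.

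Of 14 tested genes of the cell surface 5 were lower in crypt and 3 higher (5 and 4 with UMI totals alone). Among the lower were intestinal alkaline phosphatase Alpi (-7.18), which is also one of the genes used to name enterocytes and to score maturity, and Dpp4 (-3.48), which binds adenosine deaminase on the surface of human cells. Of 5 tested transporters 2 were lower and 2 higher. The urate exporter Abcg2 was 14.1 and 12.6 CPM in crypt and 403 and 258 CPM in mature cells (-5.02), and the urate carrier Slc2a9 stood at -3.12, both in the direction of Xdh, the enzyme that makes urate. The 2 that were higher were Abcc4 (3.94), which exports cyclic nucleotides and urate, and Slc23a3 (2.22). Of 7 pyrimidine genes 4 were higher, with thymidine kinase Tk1 at 6.15, and 2 lower, with uridine phosphorylase Upp1 at -3.80. Uox, which oxidises urate in rodents, and the carrier Slc28a3 were at 0 UMIs in every class.

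In secretory against enterocyte-like cells, where 13.7% of all genes were higher and 23.5% lower, 5 of 12 synthesis genes were higher and 1 lower (median 1.03). Of the surface genes 2 of 14 were higher and 6 lower, of the breakdown genes 1 of 9 higher and 1 lower, of the salvage genes 2 of 7 higher and 1 lower, of the pyrimidine genes 1 of 7 higher and 2 lower, and of the transporters 0 of 5 higher and 2 lower. With UMI totals alone, where 27.6% of all genes were higher and 13.5% lower, the surface genes gave 2 higher and 3 lower. The synthesis genes then gave 6 higher and 1 lower, the breakdown genes 2 and 1, and the salvage genes 3 and 1. The pyrimidine genes gave 2 and 2, and the transporters 0 and 2. In tuft-like cells the lysosomal nucleoside carrier Slc29a3 was higher than in the other secretory classes, by 4.52 on the log2 scale, at 51.1 and 290 CPM. The surface enzyme Enpp4 was also higher there (5.13), as was the nucleotidase Nt5c (1.47). In mature against early enterocyte-like cells no list had a call in the fit without block. With the replicate block 6.26% of all genes were higher and 8.98% lower. Higher were 3 of 14 surface genes (Alpi 2.22, Entpd2 1.77 and Dpp4 1.43), 2 of 9 breakdown genes (Ampd3 2.44 and Nt5c2 2.05) and 1 of 5 transporters (Slc2a9 1.36). Alpi is itself part of the maturity score that divides these cells. Lower were 4 of 12 synthesis genes (Adsl -2.45, Impdh2 -2.40, Atic -2.04 and Gmps -1.72) and 2 of 7 pyrimidine genes (Uck2 -2.78 and Tymp -1.58). None of the 7 salvage genes was called.

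Genes with courses most like each member were sought by Pearson's r of log2 (CPM + 1) over the 9 classes of the model, averaged over the rats, among 7951 genes. The points share libraries and free RNA, so r is a description. Xdh was closest to Ckmt1 (0.981) and Soat2 (0.980), and Slc28a1 to Retsat (0.983), Lipe (0.966) and Slc30a10 (0.958). Pnp was closest to Sdhc (0.967), a gene listed only by the identifier ENSRNOG00000024967 (0.958) and Ndufb3 (0.955), and Enpp3 to AABR07057436.1 (0.966), Prap1 (0.949) and Mfap2 (0.948). Ada was nearest to Lrrc75b (0.938), Btnl5 (0.928) and Slc46a1 (0.928), and Slc28a2 to Ugt2b17 (0.933), C2cd2l (0.933) and then Ada itself (0.923), the only pair of members among these. Nt5e had the weakest matches, led by Taf9b (0.796), Cacna1a (0.782) and Gstz1 (0.778).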

How the data were processed

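The authors deposited 1 matrix of raw UMI counts per rat, with no cell annotation, made with Cell Ranger on the build rn6; the file headers give version 3.1.0 in the first animal and 5.0.1 in the second, and counting may have differed between the animals. In the deposited counts 4255 symbols occurred more than once. The 8 members, the pathway lists and the marker lists were chosen with earlier results of these data known.

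Cells passing the limits given above were clustered with Seurat 5.3.0 in R 4.3.3, following the study's steps (rats integrated, 2000 variable genes without members and pathway genes, 20 principal components, resolution 0.3 and then 0.5). A cluster was named from its markers, and cells with at most 10 UMIs over Epcam, Krt8, Krt18, Krt19 and Krt20 were left out of every epithelial class. Clusters with too few markers (523 and 38 cells) or led by markers of 2 classes (107 and 53 cells), 264 and 320 leukocyte-marked and 28 and 244 erythroid-marked cells entered no comparison. Scrublet (scanpy 1.11.5) called 116 cells (1.94%) in rat 1 and 2 (0.0897%) in rat 2; they were kept, and removal was an alternative. The maturity score was computed on cells thinned to 5000 UMIs.

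Raw counts were summed per rat and class and tested with edgeR 4.0.16 (TMM, filterByExpr, all classes in 1 model), with DESeq2 1.42.0 and, added after seeing the data, edgeR on UMI totals without TMM factors as alternatives. Each rat's sums come from 1 animal and are therefore paired; over 36 pairs of classes the deviations of the same-numbered rat from the class means correlated with a median r of 0.262 (0.0903 to 0.84). The scripts were tested on simulated data. Levels have exact Poisson and shares exact binomial 95% intervals (scipy 1.17.1), which cover counting error only; a count of 0 is given an upper limit of 3 counts throughout. The text names the 8 members, and from the pathway lists called genes of large fold. Likeness was taken over genes with at least 50 UMIs and 10 CPM. One gene is not reported here.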

Additional observations from a re-analysis of the deposited data

Results flagged for a closer look

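Slc29a1 stood at 42.3 CPM (37 UMIs, 95% exact Poisson interval 29.7 to 58.2) in the 94 cells of rat 2 that carried almost no epithelial transcripts, which enter no comparison. The highest upper limit among the classes of the same rat was 19.2 CPM, from the 0 UMIs of its EEC-like cells. A Ptprc UMI was present in 94.7% of the 94 cells. Rat 1 had 1 such cell, so the level has no second animal, and its 8 CHE-like cells, with 0 UMIs, allow up to 39.9 CPM.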

How the results depend on the processing

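Of the single-gene results 805 kept their side of the threshold or moved within their error. A change of sign with no call in either fit was counted among these, whatever its size, as for Nt5e of secretory cells in rat 1 alone. A further 33 values with no test moved beyond their error (shares of cells without thinning, and differences in 1 rat alone). Another 18 passed the threshold only under an alternative, 5 lost it (given beside the results) and 2 turned with a call in 1 of the fits. The 2 were Xdh in goblet/Paneth-like against other secretory cells, not called at -0.48. It was called higher at 2.75 without an upper limit on genes per cell and at 1.88 with a mitochondrial limit of 20%. A cluster with both goblet and enterocyte genes then counted as goblet/Paneth-like, which is unnamed otherwise. The count of genes called in mature against early cells, 1, was the least settled. It was 304 by DESeq2, 2 with its size factors, 663 without the filter on low counts, 13 without a gene limit, 27 at the 20% limit, 264 without integration, 0 without the epithelial filter, 6 with doublets removed, 7 with the villus list, 0 with the tip list, 14 with an unthinned score, 19 with common boundaries and, in settings added after seeing the data, 17 with marker-poor cells as enterocytes and 2 without Ptprc cells. Without the filter the counts were 895 (goblet/Paneth-like, 432 with it), 1078 (EEC-like, 474), 922 (tuft-like, 453) and 1061 (CHE-like, 575), and without integration 782 (goblet/Paneth-like) and 687 (tuft-like). With UMI totals alone in place of TMM, also added after seeing the data, they were 277 (goblet/Paneth-like) and 751 (tuft-like). Ada and Enpp3 in mature against early cells passed without the filter too, as did Slc28a2 in goblet/Paneth-like, Nt5e in EEC-like and Enpp3 in tuft-like cells. With the replicate block by rat the counts were 1534 (mature against early, 1283 when the tip list was used as well), 1014 (goblet/Paneth-like), 926 (tuft-like) and 1124 (CHE-like), and the calls of members it changed are those given with the results. Leaving out a rat leaves 1 sum per class and no test. The 8 CHE-like and 16 tuft-like cells of rat 1 and the 35 crypt and 11 EEC-like cells of rat 2 limit what depth can show; in these classes 1 UMI was worth 13.3, 5.68, 1.57 and 6.41 CPM.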

Other observations

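Leukocyte-marked cells, which enter no comparison, carried members in another proportion than enterocyte-like cells. Their Nt5e level was 255% of that of mature enterocyte-like cells in rat 1 and 507% in rat 2, above the 31.7% to 69.9% and 30.1% to 57.6% at which the 8 abundant enterocyte genes stood in the same cells. Ada was at 20.6% in rat 1, under that range, and at 29.9% in rat 2 (95% exact interval 28.6% to 31.3%), which overlaps its lower end. These cells held a Ptprc UMI in 40.9% of cases in rat 1 and 93.4% in rat 2, and the levels have no test.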
